A study of Mus musculus with 6 samples.

Results

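Clade B serpins are the intracellular branch of the serpin family of protease inhibitors, and in the mouse their genes lie in clusters on chromosome 13 and chromosome 1. Every gene whose symbol begins with Serpinb was taken, which gave 27 of the 21929 genes in the table, 16 on chromosome 13 and 11 on chromosome 1. The family was chosen by the measured FPKM values of these libraries, in which the chromosome 13 cluster was higher as a block in Biotin-positive cells. The difference between the groups is therefore given for its members as a description and not as a test. RNA-seq was made from L929, an established mouse fibroblast line. The first group, 3 Biotin-positive libraries, holds RNA of cells that had interacted with tumour cells. Their labels name the partner as MFCSTCL, which they do not explain, and the study's design text calls it tumour. The second group, 3 Biotin-negative libraries, holds RNA of cells without that interaction. No genotype change or drug is named for either group, and how biotin marked the cells is not given in the sources used here.

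A serpin presents a loop that a protease takes for a substrate; once the protease cuts it, the serpin changes shape and traps the enzyme. Clade B members lack the usual secretion signal, and most act in the cytosol or nucleus, where they shield a cell from proteases that leak from granules or lysosomes or are delivered by killer lymphocytes. In humans SERPINB1 acts on neutrophil proteases, SERPINB6 on cathepsin G and related enzymes, and SERPINB9 on granzyme B. The mouse carries several copies of each of these genes, and these copies make up the chromosome 13 cluster.

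FPKM values, fragments scaled to gene length and library size, summed to between 337771 and 356681 per library, and reads per library are not part of the table, so depth is unknown. Across genes, log2(FPKM + 1) correlated at 0.998 to 0.999 between libraries of a group and at 0.977 to 0.978 between libraries of different groups. Whether replicate libraries are separate cultures is not stated, so an SD or a p-value covers the spread between libraries alone, and that spread may be technical. In bulk RNA, a change in the share of cells that express a gene and a change in RNA per cell cannot be told apart. Of 12 fibroblast markers 8 passed the level filter explained below, the 4 others being Thy1, Fap, Dcn and Lum, each under 1 FPKM in every library. The list summed to between 2623 and 2694 FPKM in Biotin-positive libraries, against 3912 to 4128 FPKM in Biotin-negative ones. Fn1 alone averaged 172 FPKM in Biotin-positive libraries and 2017 FPKM in Biotin-negative ones, a fall larger than that of the whole sum. Vim averaged 1418 FPKM in Biotin-positive libraries and 658 FPKM in Biotin-negative ones. By limma the collagen genes, Fn1, Pdgfra and Pdgfrb fell, while Vim and S100a4 rose.

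The coding sequences and promoters of the Serpinb9 copies are shown first, because their likeness decides how far the copies can be read apart. The chromosome 13 cluster spans 1.161 Mb (chr13:32842092-34002794, GRCm38) and the chromosome 1 cluster 0.749 Mb (chr1:106861173-107610484, GRCm38), and no other gene of the table starts between the starts of the first and last member of either. Taken as the longest open reading frame, coding sequences were 87.8 to 90.7% identical within Serpinb1, 77.8 to 87.9% within Serpinb6 and 77.1 to 99.1% within Serpinb9. Between these subfamilies the range was 61.6 to 70.8%, and between the chromosomes 60.2 to 70.2%. Serpinb9d, Serpinb9e, Serpinb9f, Serpinb9g and Serpinb9h formed the closest set, with 94.2 to 99.1% identity over 10 pairs. Of the 100-base windows of the transcript, 66.7% in Serpinb9h, 52.3% in Serpinb9f, 38.5% in Serpinb9g, 10.1% in Serpinb9e and 7.2% in Serpinb9d occurred unchanged in a transcript of another gene. A share of 16.7% of the Serpinb9c windows did so too. The authors' counting could have split such reads among the copies or dropped them, so the single levels of Serpinb9c to Serpinb9h are uncertain. Serpinb9, Serpinb9b and every Serpinb1 and Serpinb6 gene had no such window.

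**Figure D1:**
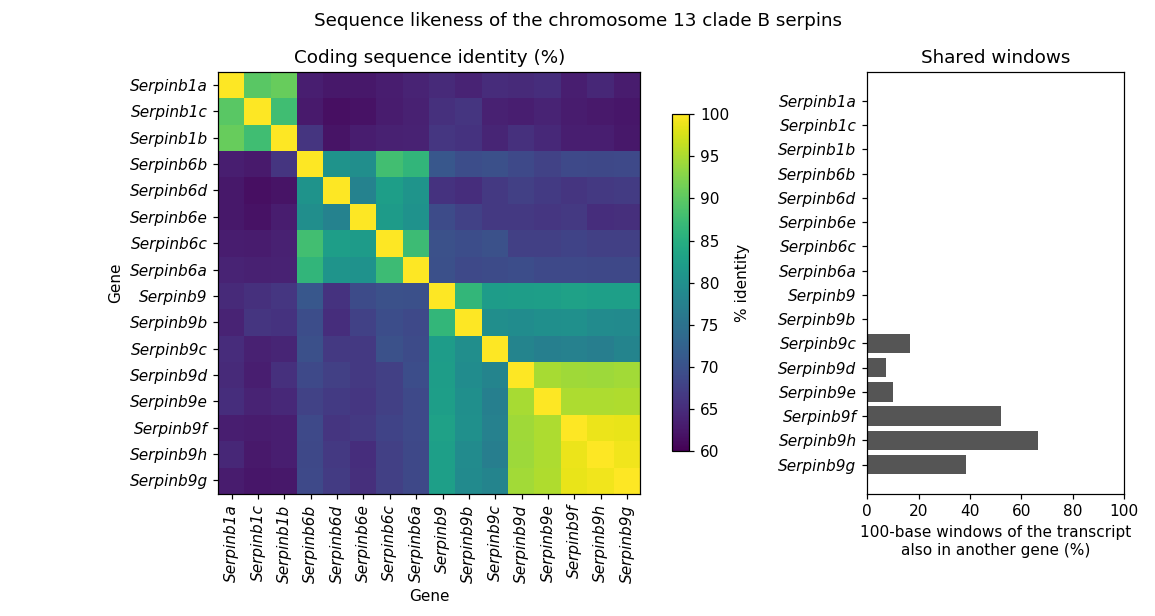
Left, identity in percent between the coding sequences of the 16 chromosome 13 genes, ordered by subfamily and map position, from 60 (dark) to 100 (bright). Right, bars give the percentage of each transcript's 100-base windows that also occur in another gene, which reaches 66.7% in Serpinb9h and is 0 for 10 of the 16 genes.

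RefSeq promoter entries matched 25 of the 27 genes, 15 on chromosome 13 and 10 on chromosome 1. The 250 bases before the start are printed for 4 of the close Serpinb9 copies, to show that their likeness extends upstream of the gene. All are on the plus strand of GRCm38.p6, at chr13:33249358-33249607 (Serpinb9e), chr13:33323827-33324076 (Serpinb9f), chr13:33484540-33484789 (Serpinb9g) and chr13:33192705-33192954 (Serpinb9d). Capitals mark bases that are substituted or inserted relative to Serpinb9e.
Serpinb9e: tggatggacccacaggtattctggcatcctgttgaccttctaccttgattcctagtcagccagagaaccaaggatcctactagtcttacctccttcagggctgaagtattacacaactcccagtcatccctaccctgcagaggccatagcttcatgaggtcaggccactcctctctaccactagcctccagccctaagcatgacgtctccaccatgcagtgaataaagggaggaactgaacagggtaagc
Serpinb9f: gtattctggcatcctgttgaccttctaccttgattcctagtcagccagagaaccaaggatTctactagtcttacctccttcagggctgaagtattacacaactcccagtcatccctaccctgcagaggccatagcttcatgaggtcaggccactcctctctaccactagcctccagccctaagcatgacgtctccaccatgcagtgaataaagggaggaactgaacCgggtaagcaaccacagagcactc
Serpinb9g: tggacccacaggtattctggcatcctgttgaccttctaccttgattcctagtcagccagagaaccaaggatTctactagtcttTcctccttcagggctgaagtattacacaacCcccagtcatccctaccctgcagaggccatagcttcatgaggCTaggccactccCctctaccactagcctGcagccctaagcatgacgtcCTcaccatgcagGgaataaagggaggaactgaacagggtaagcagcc
Serpinb9d: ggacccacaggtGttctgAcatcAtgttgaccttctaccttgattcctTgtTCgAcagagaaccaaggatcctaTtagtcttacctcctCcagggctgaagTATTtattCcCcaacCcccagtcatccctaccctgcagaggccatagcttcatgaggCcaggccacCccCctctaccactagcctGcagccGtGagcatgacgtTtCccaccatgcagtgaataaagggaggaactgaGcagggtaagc
Over the aligned stretch the Serpinb9f promoter matched that of Serpinb9e at 99.1% of 235 bases, Serpinb9g at 95.9% of 246 and Serpinb9d at 91.8% of 245, and Serpinb9d also held 5 inserted bases. The annotated promoter of Serpinb9h matched that of Serpinb9e at only 57.5% of 228 bases although the coding sequences are close. Promoters of different subfamilies matched about as well, as Serpinb9e and Serpinb6c did at 58.6% of 215 bases. The Serpinb9h entry ends at 33395672 and the gene of the table starts at 33395761. Whether the 2 stretches correspond was not tested, so a difference between the promoters is not read from this.

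Letters that transcription factors are known to bind were searched in the same 250 bases of all 32851 promoter entries, on both strands. The AP-1 letters TGANTCA stood in 0 of the 19 chromosome 13 entries and in 7 of the 12 chromosome 1 entries, against 6.7% of all entries. These 7 were 2 entries of Serpinb2 and 1 each of Serpinb5, Serpinb7, Serpinb8, Serpinb11 and Serpinb12. Of these genes, Serpinb11 and Serpinb12 were listed at 0 FPKM in every library. The TEAD letters GGAATG stood in 4 of 19 and 1 of 12, against 12.6% of all. The interferon-stimulated response element, searched as GAAA, any 2 bases and GAAA, stood in 2 of 19 entries, those of Serpinb9 and Serpinb6a, and in 0 of 12, against 3.0% of all, and the NF-kB site, searched as GGGA, any base and TTTCC, in 0 of 19 and 0 of 12, against 0.4%. The TATA box, searched as TATAAA on the gene's own strand, stood in 1 of 19 and 7 of 12 entries, against 7.6%. Some genes have 2 entries, and those of Serpinb2 overlap and share their AP-1 letters, so the entries are not independent. A match of letters describes the sequence and does not show binding. The promoters of the 3 chromosome 1 genes with the highest levels follow, with AP-1 and TEAD letters in capitals, on the plus strand at chr1:107511173-107511422 (Serpinb2), chr1:107422439-107422688 (Serpinb7) and chr1:107589756-107590005 (Serpinb8).
Serpinb2: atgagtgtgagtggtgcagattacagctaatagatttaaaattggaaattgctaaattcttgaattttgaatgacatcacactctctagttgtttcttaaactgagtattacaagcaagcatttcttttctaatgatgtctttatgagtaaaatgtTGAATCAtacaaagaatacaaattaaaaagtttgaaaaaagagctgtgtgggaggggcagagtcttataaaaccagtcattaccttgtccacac
Serpinb7: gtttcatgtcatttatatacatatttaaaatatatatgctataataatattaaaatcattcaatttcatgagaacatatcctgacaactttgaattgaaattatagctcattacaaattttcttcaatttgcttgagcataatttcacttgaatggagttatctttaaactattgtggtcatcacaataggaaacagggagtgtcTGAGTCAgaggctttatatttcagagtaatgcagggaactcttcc
Serpinb8: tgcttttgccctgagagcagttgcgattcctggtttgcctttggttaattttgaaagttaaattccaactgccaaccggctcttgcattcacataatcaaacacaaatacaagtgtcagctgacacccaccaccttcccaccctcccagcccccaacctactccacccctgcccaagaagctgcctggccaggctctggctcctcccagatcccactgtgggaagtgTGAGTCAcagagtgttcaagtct

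The largest differences in the cluster were those of Serpinb9 genes. On the log2(FPKM + 1) scale Serpinb9h, a low gene with a log2 difference of 1.05, was below Serpinb1a and Serpinb6b. Its ratio of mean FPKM, 9.38, was above those of Serpinb1a (2.51) and Serpinb6b (2.24). The 8 Serpinb9 levels summed to 130.7 ± 1.96 FPKM in Biotin-positive libraries and 19.4 ± 0.684 FPKM in Biotin-negative ones (SD, n = 3 each), a ratio of 6.73. Serpinb9b (ENSMUSG00000021403, chr13:33027416-33041884) had 63.6, 63.9 and 61.4 FPKM in Biotin-positive libraries, against 6.54, 6.04 and 6.33 FPKM in Biotin-negative ones. The groups lay far apart, at a ratio of 9.99, and the log2 difference of 3.13 (SE 0.0409) was the 19th highest among the 11029 genes tested. Serpinb9b shares 8.3% of its exon bases with the antisense gene Gm36099, and without strand their reads cannot be told apart. Log2 differences here and below are on the log2(FPKM + 1) scale, Biotin-positive minus Biotin-negative, which understates changes of low genes. Serpinb9 itself (ENSMUSG00000045827, chr13:33003250-33017957), the mouse granzyme B inhibitor, had 34.1, 33.8 and 30.9 FPKM in Biotin-positive libraries, against 9.30, 10.2 and 10.6 FPKM in Biotin-negative ones. Its ratio was 3.28, and no library of a group reached the other group's range. The order of these neighbours differed between the groups. Serpinb9b stood above Serpinb9 in each Biotin-positive library, and Serpinb9 stood above Serpinb9b in each Biotin-negative one.

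Among the close copies, Serpinb9e (ENSMUSG00000062342, chr13:33249612-33260850) had 16.7, 16.3 and 17.6 FPKM in Biotin-positive libraries, against 1.75, 1.93 and 1.83 FPKM in Biotin-negative ones, a ratio of 9.17. Serpinb9f (ENSMUSG00000038327, chr13:33324077-33335370) had 9.07, 8.52 and 8.52 FPKM in Biotin-positive libraries, against 0.627, 0.638 and 0.935 FPKM in Biotin-negative ones, a ratio of 11.9. Serpinb9h had 1.66, 1.21 and 1.28 FPKM in Biotin-positive libraries, against 0.176, 0.125 and 0.141 FPKM in Biotin-negative ones. In all of these the groups were separate and the Biotin-positive libraries high. Serpinb9g, at 0.980, 1.34 and 1.298 FPKM in Biotin-positive libraries and 0.166, 0.290 and 0.124 FPKM in Biotin-negative ones, missed the level filter by 1 library. Because reads may be split among these copies, their sum is the safer figure. Serpinb9e to Serpinb9h together had 28.4, 27.4 and 28.7 FPKM in Biotin-positive libraries, against 2.72, 2.99 and 3.03 FPKM in Biotin-negative ones, a ratio of 9.67.

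Serpinb9c and Serpinb9d were close to 0 in Biotin-negative cells. Serpinb9c had 2.41, 3.53 and 4.18 FPKM in Biotin-positive libraries, against 0.0820, 0.0857 and 0.0628 FPKM in Biotin-negative ones. Serpinb9d had 2.64, 3.73 and 3.32 FPKM in Biotin-positive libraries, against 0.0358, 0.184 and 0 FPKM in Biotin-negative ones. Within the Biotin-positive group the levels of these genes overlapped and their spread was wide, with an SD of 0.894 FPKM for Serpinb9c around a mean of 3.37. Their log2 differences were 2.00 (SE 0.136) and 1.97 (SE 0.108), and no ratio is given because the Biotin-negative levels are near 0.

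Serpinb1 genes had ratios between 2.18 and 2.75. Serpinb1a (ENSMUSG00000044734, chr13:32842092-32851185), the mouse counterpart of the human inhibitor of neutrophil proteases, had 13.8, 13.2 and 11.98 FPKM in Biotin-positive libraries, against 4.88, 5.26 and 5.40 FPKM in Biotin-negative ones, a ratio of 2.51. Serpinb1b had 2.47, 2.33 and 2.44 FPKM in Biotin-positive libraries, against 1.15, 0.826 and 0.663 FPKM in Biotin-negative ones. Serpinb1c had 2.30, 2.58 and 1.93 FPKM in Biotin-positive libraries, against 0.888, 1.16 and 1.09 FPKM in Biotin-negative ones. Every Biotin-positive library stood above every Biotin-negative one for each Serpinb1 gene, and Serpinb1b and Serpinb1c overlapped each other within both groups.

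Serpinb6 genes held most of the clade B RNA. Their sum had a ratio of 1.42, set by Serpinb6a, and without Serpinb6a the ratio was 2.22. Serpinb6a (ENSMUSG00000060147, chr13:33917918-34002794) was the highest member in every library, with 331, 326 and 309.7 FPKM in Biotin-positive libraries, against 233, 237 and 245 FPKM in Biotin-negative ones. The ratio was 1.35 and the log2 difference 0.44 (SE 0.0350), the smallest among the members that passed the filter. Serpinb6a shares 14.09% of its exon bases with Nqo2, 4.46% with Ripk1 and 10.8% with the antisense gene 1110046J04Rik, all on the opposite strand, and it is not stated whether counting used strand. Serpinb6b (ENSMUSG00000042842, chr13:32965209-32979067) had 41.8, 43.2 and 40.5 FPKM in Biotin-positive libraries, against 18.7, 17.7 and 19.6 FPKM in Biotin-negative ones, a ratio of 2.24. Serpinb6d had 1.93, 1.28 and 1.59 FPKM in Biotin-positive libraries, against 0.819, 0.914 and 0.939 FPKM in Biotin-negative ones. Serpinb6c had 0.193, 0.247 and 0.357 FPKM in Biotin-positive libraries, against 0.0653, 0.178 and 0.112 FPKM in Biotin-negative ones, with groups that nearly touched. Serpinb6e was listed at 0 throughout.

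**Figure D2:**
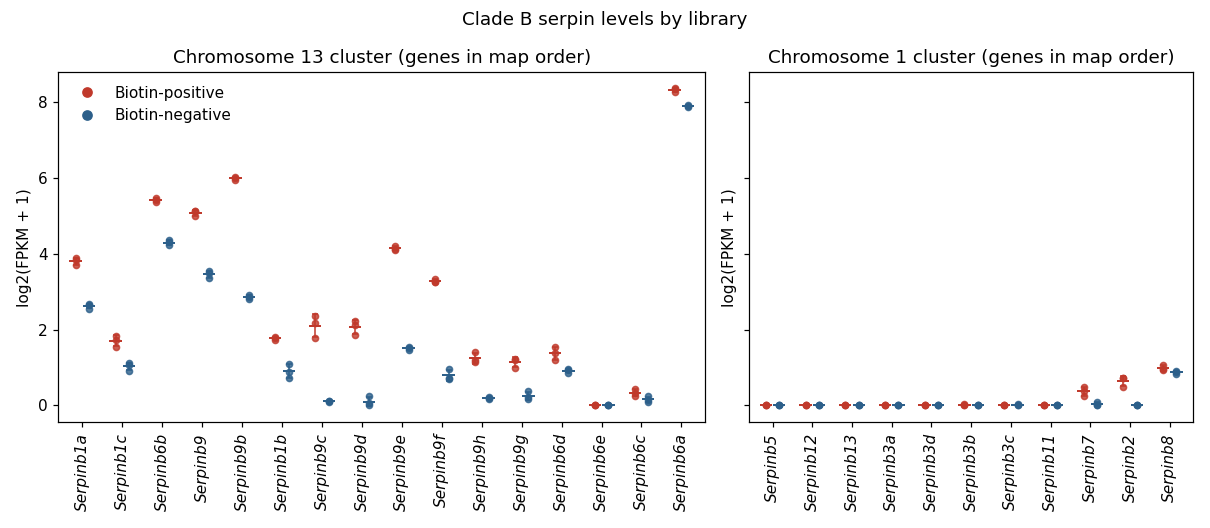
Levels of all 27 clade B serpin genes as log2(FPKM + 1) on the y axis, in map order on the x axis, with Biotin-positive libraries (red, left) and Biotin-negative libraries (blue, right). Points are libraries, horizontal bars means and vertical bars SD over 3 libraries. Serpinb6a is highest in both groups, and 15 of 16 chromosome 13 genes have every red point above every blue one. Of all tested genes 39.1% do so, and nothing is read from the count, since this contrast chose the family.

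The make-up of the family differed between the groups. The 27 levels summed to 516 ± 15.2 FPKM in Biotin-positive libraries and 285 ± 7.74 FPKM in Biotin-negative ones (SD, n = 3 each), a ratio of 1.81. Serpinb9 genes held 25.3 ± 0.430% of this sum in Biotin-positive libraries and 6.80 ± 0.0931% in Biotin-negative ones. Serpinb6a alone held 62.4 ± 0.410% in Biotin-positive libraries and 83.5 ± 0.112% in Biotin-negative ones. FPKM is scaled to length, so these are shares of transcript number rather than of reads, as far as the authors' gene lengths are right.

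Of the 16 chromosome 13 genes, 13 passed the level filter, which asked for 1 FPKM or more in 3 or more of the 6 libraries. In the limma fit over 11029 genes, with Benjamini-Hochberg adjustment at 0.05, 13 of these 13 were higher in Biotin-positive cells and 0 lower. Over all tested genes 73.9% were called in either direction, 37.8% higher and 36.1% lower. Every Biotin-positive library stood above every Biotin-negative one for 15 of the 16 genes, where 39.1% of tested genes did so. The 15 include Serpinb9g and Serpinb6c, which did not pass the filter, so the share is not over a like set. Of the 13, 11 had a ratio of at least 2, where 7.07% of tested genes did. Nothing is read from these counts, since this contrast chose the family. Moreover Serpinb6d, Serpinb9c, Serpinb9d, Serpinb9f and Serpinb9h were at 1 FPKM in no Biotin-negative library and passed the filter through the Biotin-positive libraries alone. The median log2 difference was 2.00 for the 7 tested Serpinb9 genes, 0.87 for the 3 Serpinb1 genes and 0.45 for the 3 Serpinb6 genes, beside 0.01 for all tested genes.

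Chromosome 1 members were low or silent. None of the 11 passed the filter, and Serpinb3a, Serpinb3d, Serpinb11, Serpinb12 and Serpinb13, which are mostly known from keratinocytes and other squamous cells, were listed at 0 in all 6 libraries. Serpinb5, the gene of maspin, and Serpinb3b and Serpinb3c were at 0.0146, 0.0313 and 0.0288 FPKM in 1 library each and at 0 in the others. Serpinb8, whose human counterpart inhibits furin, was the highest of the cluster, at 0.931, 1.11 and 0.913 FPKM in Biotin-positive libraries, against 0.784, 0.856 and 0.875 FPKM in Biotin-negative ones. These groups lay close together, at a ratio of 1.18. Serpinb2, which encodes plasminogen activator inhibitor type 2, was at 0.640, 0.642 and 0.399 FPKM in Biotin-positive libraries and listed at 0 in each Biotin-negative one. Serpinb7 was at 0.184, 0.308 and 0.394 FPKM in Biotin-positive libraries, against 0, 0 and 0.0727 FPKM in Biotin-negative ones. So the groups did not overlap for Serpinb2, Serpinb7 and Serpinb8, all at levels near or below 1 FPKM. That is 3 of 11 genes, where every Biotin-positive library was above in 39.1% of the genes that passed the filter, and nothing is read from it. In a fit without the level filter, 2 of 6 chromosome 1 genes, Serpinb2 and Serpinb7, were called higher, where 28.4% of all genes in that fit were, and nothing is read from this. Serpinb2 shares 12.39% of its exon bases with Serpinb10, which was not analysed here.

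Genes around the clusters were read next. Of 13 other genes that start within 1 Mb of the chromosome 13 members, 9 were tested, and by limma 5 rose, 2 fell and 2 did not pass, with a median log2 difference of 0.11. Over all tested genes 37.8% were called higher and 36.1% lower, and nothing is read from the count of neighbours. Nqo2, which lies within the span of Serpinb6a, and Ripk1, which overlaps its 5′ edge, did not pass. Nqo2, a quinone reductase gene, averaged 23.4 ± 0.786 FPKM in Biotin-positive libraries and 24.9 ± 0.432 FPKM in Biotin-negative ones (limma adjusted p = 0.0653). Each Biotin-positive library stood below each Biotin-negative one for Nqo2, and it was called lower with quantile normalization (adjusted p = 0.0273), with an equal sum per library (adjusted p = 0.00571) and when Biotin-positive replicate 2 was left out (adjusted p = 0.0377). Ripk1, a kinase gene of death signalling, averaged 10.7 ± 0.793 FPKM in Biotin-positive libraries and 11.4 ± 0.743 FPKM in Biotin-negative ones (limma adjusted p = 0.318). Wrnip1, on the far side beside Serpinb1a, averaged 24.7 ± 0.897 FPKM in Biotin-positive libraries and 22.8 ± 0.434 FPKM in Biotin-negative ones (limma adjusted p = 0.0341). Its call and that of Psmg4 were both lost without Biotin-positive replicate 3 or without Biotin-negative replicate 1, which leaves 3 rises, those of Tubb2a, Tubb2b and Pxdc1. Wrnip1 also lost its call without Biotin-positive replicate 1 (adjusted p = 0.103) and without Biotin-negative replicate 3 (adjusted p = 0.107), and with the replicate number as a block (adjusted p = 0.0556). Farther out, the tubulin gene Tubb2b averaged 14.4 ± 0.879 FPKM in Biotin-positive libraries and 5.15 ± 0.224 FPKM in Biotin-negative ones (log2 difference 1.33, SE 0.0580, limma adjusted p = 1.69e-07). Tubb2a averaged 69.7 ± 1.71 FPKM in Biotin-positive libraries and 39.6 ± 1.03 FPKM in Biotin-negative ones (limma adjusted p = 1.45e-07), but 36.9% of the Tubb2a windows and 27.7% of the Tubb2b windows occur in other genes, so their split is uncertain. Pxdc1 was at 2.41, 1.78 and 2.00 FPKM in Biotin-positive libraries and listed at 0 in the Biotin-negative ones. It passed the filter through the Biotin-positive libraries alone, so its call adds nothing to these values. The 2 neighbours that fell were Bphl, the next gene beyond Ripk1, and Prpf4b. Bphl averaged 6.33 ± 0.696 FPKM in Biotin-positive libraries and 9.47 ± 0.984 FPKM in Biotin-negative ones (limma adjusted p = 0.000761). Prpf4b averaged 16.4 ± 1.15 FPKM in Biotin-positive libraries and 23.4 ± 1.10 FPKM in Biotin-negative ones (limma adjusted p = 7.04e-05). Both were called lower in every alternative run.

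Beside the chromosome 1 cluster 5 other genes were tested, and by limma 0 rose, 2 fell and 3 did not pass, with a median log2 difference of -0.11. With 37.8% of all tested genes called higher and 36.1% lower, nothing is read from so short a list. Zcchc2 averaged 25.1 ± 1.00 FPKM in Biotin-positive libraries and 38.2 ± 1.35 FPKM in Biotin-negative ones (limma adjusted p = 3.42e-06). Vps4b, an ATPase gene of membrane scission, averaged 13.6 ± 0.601 FPKM in Biotin-positive libraries and 14.9 ± 0.200 FPKM in Biotin-negative ones (limma adjusted p = 0.0400). That call was lost without Biotin-positive replicate 2 or 3, without each Biotin-negative replicate in turn (adjusted p from 0.0562 to 0.123 over these fits) and with the replicate number as a block (adjusted p = 0.0643). Bcl2, the gene of the apoptosis inhibitor, did not pass (limma adjusted p = 0.154).

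**Figure D3:**
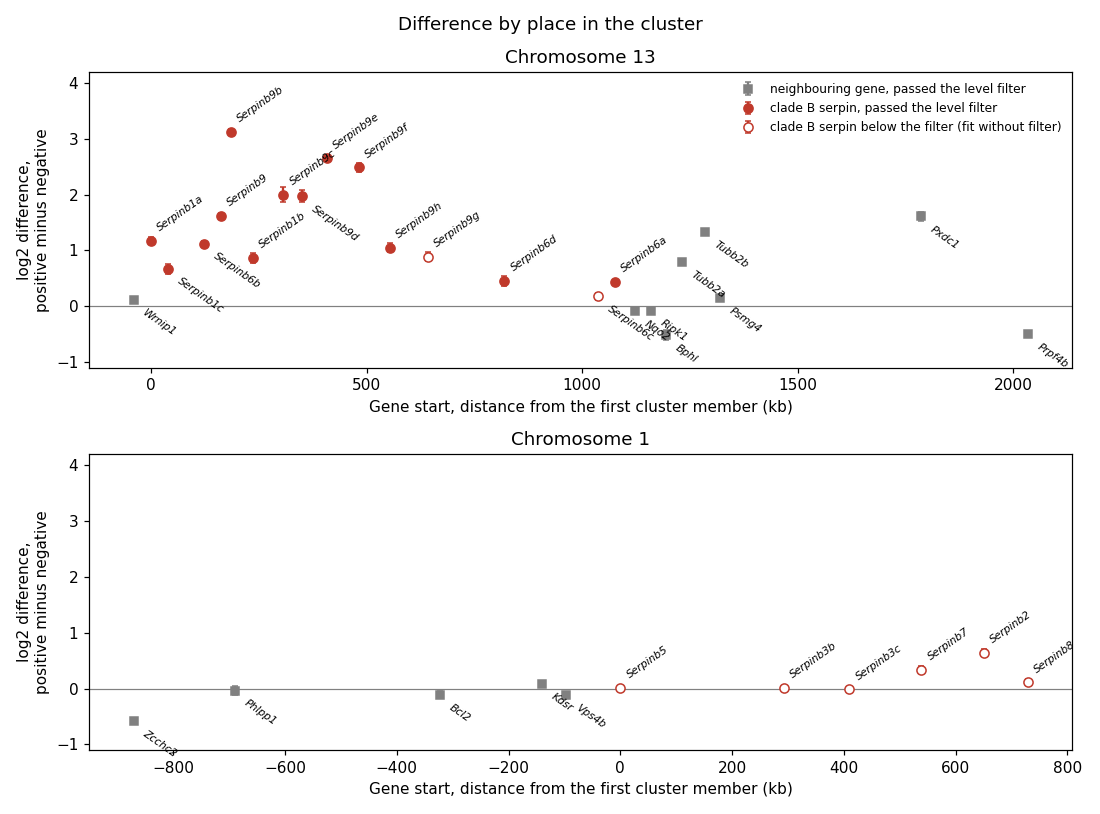
Difference in log2(FPKM + 1), Biotin-positive minus Biotin-negative, with its SE (y axis), against the distance of each gene's start from the first cluster member in kb (x axis). Red circles are clade B serpins, open where they were below the level filter and come from the fit without it, and grey squares are tested neighbours within 1 Mb. On chromosome 13 the filled circles lie between 0.44 and 3.13, and the nearest neighbours Nqo2, Ripk1 and Wrnip1 between -0.09 and 0.11. Farther out are Bphl (-0.51), Tubb2a (0.80), Tubb2b (1.33), Psmg4 (0.14), Pxdc1 (1.61) and Prpf4b (-0.49).

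Enzymes were taken from a list of 31 proteases and caspases that are known targets of clade B serpins in mouse or human, or close relatives of such targets. Of these, 30 were measured, 8 were listed at 0 throughout and 12 were tested, and by limma 5 rose, 7 fell and 0 did not pass, with a median log2 difference of -0.44. The shares over all tested genes were 37.8% higher and 36.1% lower, and nothing is read from the enzyme counts. Cathepsin L (Ctsl), a lysosomal cysteine protease and the highest of the list, averaged 332 ± 4.01 FPKM in Biotin-positive libraries and 285 ± 7.76 FPKM in Biotin-negative ones (log2 difference 0.22, SE 0.0297, limma adjusted p = 0.000172). Plat, tissue plasminogen activator, averaged 13.6 ± 0.431 FPKM in Biotin-positive libraries and 6.30 ± 0.417 FPKM in Biotin-negative ones (log2 difference 1.01, SE 0.0561, limma adjusted p = 6.68e-07). Ctsc, which activates granule proteases, was at 2.58, 2.98 and 2.36 FPKM in Biotin-positive libraries and listed at 0 in each Biotin-negative one, and it too passed the filter through the Biotin-positive libraries alone. Among those that fell, the inflammatory caspase Casp4 averaged 50.04 ± 0.830 FPKM in Biotin-positive libraries and 132 ± 0.737 FPKM in Biotin-negative ones (log2 difference -1.38, SE 0.0276, limma adjusted p = 3.28e-09). Casp1, which matures interleukin 1 beta, averaged 10.00 ± 0.650 FPKM in Biotin-positive libraries and 21.4 ± 1.72 FPKM in Biotin-negative ones (limma adjusted p = 1.79e-06). Prtn3, the gene of the neutrophil protease proteinase 3, had 5.58, 4.38 and 4.43 FPKM in Biotin-positive libraries, against 14.8, 15.8 and 13.6 FPKM in Biotin-negative ones (limma adjusted p = 1.25e-06). In these libraries the neutrophil markers Mpo, S100a8, S100a9, Csf3r and Cxcr2 were at 0. Plau, the urokinase gene and target of the Serpinb2 product, missed the filter, at 0.998, 0.759 and 1.196 FPKM in Biotin-positive libraries, against 0.104, 0.0705 and 0.102 FPKM in Biotin-negative ones. Granzyme B (Gzmb) RNA is a product of killer lymphocytes, and of 8 such markers none reached 1 FPKM. Gzmb itself was at 0.0970, 0.106 and 0.0848 FPKM in Biotin-positive libraries, against 0.0273, 0 and 0 FPKM in Biotin-negative ones. So near 0, nothing is read from this difference.

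Serpins of other clades were read in the same fit. Of 35 measured, 11 were listed at 0 throughout and 4 were tested, and by limma 2 rose and 2 fell. Over all tested genes 37.8% rose and 36.1% fell, and nothing is read from so short a list. Serpinh1, the collagen chaperone of the endoplasmic reticulum and the highest serpin of the table, averaged 523 ± 9.86 FPKM in Biotin-positive libraries and 647 ± 16.98 FPKM in Biotin-negative ones (log2 difference -0.30, SE 0.0309, limma adjusted p = 2.78e-05). Serpinf1, a secreted member without inhibitor function, averaged 162 ± 7.74 FPKM in Biotin-positive libraries and 283 ± 15.3 FPKM in Biotin-negative ones (limma adjusted p = 1.11e-06). Serpina11 averaged 1.305 ± 0.185 FPKM in Biotin-positive libraries and 0.938 ± 0.195 FPKM in Biotin-negative ones (limma adjusted p = 0.0364), a call lost without Biotin-positive replicate 1 or 3 and without Biotin-negative replicate 1 or 2 (adjusted p from 0.0501 to 0.122).

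**Figure D4:**
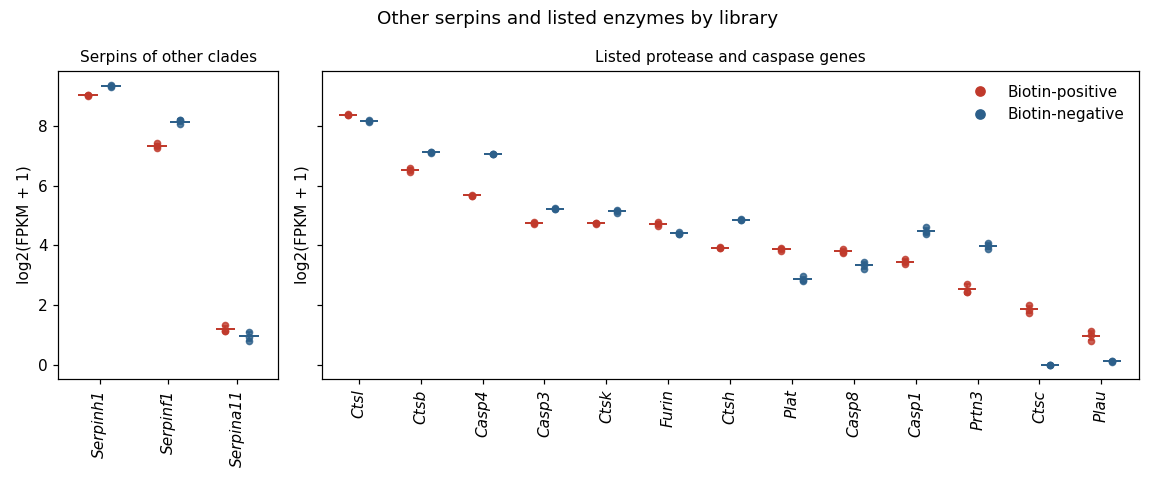
Levels as log2(FPKM + 1) on the y axis for Serpinh1, Serpinf1 and Serpina11 of other clades (left) and for the tested proteases and caspases with Plau added (right), in Biotin-positive libraries (red, left of each pair) and Biotin-negative libraries (blue). Points are libraries, horizontal bars means and vertical bars SD over 3 libraries; Plat is higher in Biotin-positive libraries, and Serpinf1, Casp4, Casp1 and Prtn3 lower.

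Markers of cells that express clade B serpins strongly were read in the same libraries. Of 24 epithelial markers 3 reached 1 FPKM, and the list summed to between 49.2 and 51.6 FPKM in Biotin-positive libraries, against 2.11 to 2.39 FPKM in Biotin-negative ones. Nearly all of the Biotin-positive sum was Krt7 and Krt8. Krt7 was at 24.7 ± 1.18 FPKM in Biotin-positive libraries and 0.236 ± 0.0759 FPKM in Biotin-negative ones, and Krt8 was at 20.8 ± 0.355 FPKM in Biotin-positive libraries and 0.0362 ± 0.0153 FPKM in Biotin-negative ones. The Krt8 level is uncertain, as 16.9% of its windows occur in a pseudogene, and Perp, at 2.56 ± 0.0503 FPKM in Biotin-positive libraries, was listed at 0 in Biotin-negative ones. The defining epithelial genes Epcam, Cdh1 and Krt18 stayed at or below 0.0263 FPKM in every library, and Krt5, Krt20, Tff1 and Tff2 were at 0. Of 10 macrophage markers Lyz2, Cd68 and Cd14 reached 1 FPKM, and the list summed to between 14.7 and 18.0 FPKM in Biotin-positive libraries, against 11.8 to 15.1 FPKM in Biotin-negative ones, with Adgre1 and Fcer1g at 0. Of 8 neutrophil markers Prtn3 alone reached 1 FPKM, and 8 cytotoxic lymphocyte, 6 mast cell and 6 endothelial markers stayed below it. The part of the keratins and of the other markers in the serpin levels was not tested.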

How the data were processed

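RNA-seq of L929 cells gave 1 table with an FPKM value per gene for 3 Biotin-positive and 3 Biotin-negative libraries. Per the submitters' processing notes, cutadapt 1.9.1, HISAT2 2.2.1 and HTSeq 0.6.1 were used with the build GRCm39. The program that made the deposited FPKM values, the denominator, the strandedness and the read length are not given in the sources used here. The gene coordinates in the deposited file equal those of GENCODE vM21, on GRCm38, for 99.1% of 21816 shared genes and for all 27 clade B genes, so coordinates are given as GRCm38.

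Steps of single reads were not visible in low FPKM values, so depth is unknown and no counting interval is given. Groups came from the labels. Values were taken as log2(FPKM + 1), and genes with 1 FPKM or more in 3 or more of 6 libraries entered a fit by limma 3.58.1 under R 4.3.3 (eBayes with a trend, two-sided, Benjamini-Hochberg over all 11029 tested genes, threshold 0.05), a procedure tested on simulated data. The members and lists were chosen with earlier results of these data known. Named are all clade B genes that reached 0.1 FPKM. From other lists, named are the called genes with a log2 difference of at least 1 and the highest tested gene. Nqo2, Ripk1, Wrnip1, Psmg4, Tubb2a, Bphl, Prpf4b, Vps4b and Bcl2 were added after their values were seen. So were Serpinf1, Serpina11, Plau, Gzmb and the clade B genes below 0.1 FPKM.

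The values of 1 tested serpin of another clade are not reported here, though it is in the counts. Transcript sequences of GENCODE vM21 (longest protein-coding transcript per gene) gave open reading frames, global alignments with Biopython 1.88 and exact 100-base matches to any other gene. Promoters are from RefSeq on GRCm38.p6. Tables and figures used Python 3.11.15, pandas 2.3.3, numpy 2.4.6 and matplotlib 3.10.9. Alternatives were pseudocounts of 0.1 and 0.5, no filter, a minimum of 5 FPKM, median-of-ratios, quantile and equal-sum scaling, eBayes without a trend or with a robust prior, a replicate block, and leaving out each library.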

Additional observations from a re-analysis of the deposited data

How the results depend on the processing

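All 13 tested chromosome 13 genes were higher in Biotin-positive cells, and called so, in every alternative run except the minimum of 5 FPKM. That run left 7 to test and called 7. In the main fit 73.9% of all tested genes were called in either direction and 37.8% higher. Nothing is read from the 13, since this contrast chose the family. Moreover 5 of the 13 passed the filter through the Biotin-positive libraries alone. The size of the log2 differences of the 13 genes depended on the pseudocount. With 0.1, 10 of the 13 moved by at least the larger SD within a group, and with 0.5, 8 of the 13 did. In both runs 0 changed sign, and the printed log2 differences hold for a pseudocount of 1. Without a filter on low values, 2 of 6 chromosome 1 genes were called higher, against 28.4% of all genes in that fit. Of 35 measured other serpins, 11 of them at 0 throughout, 7 were called in that fit, 5 of them lower. Among all genes called in that fit, 52.6% were higher and the rest lower. Of 30 measured enzymes, 8 of them at 0 throughout, 8 were called higher, and nothing is read from these counts. With a minimum of 5 FPKM, with quantile normalization and with an equal sum per library, 1 other serpin was called higher, and the last 2 of these left 3 rising neighbours on chromosome 13 and added Nqo2 to those that fell. These losses were of Serpina11, or of Wrnip1 and Psmg4.

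Leaving out each library in turn gave 13 chromosome 13 members, 5 to 8 neighbours on chromosome 13 (3 to 5 higher, 2 to 3 lower), 1 to 2 neighbours on chromosome 1 (1 to 2 lower), 3 to 4 other serpins (1 to 2 higher) and 12 enzymes. Over all genes it gave 7690 to 7878 calls, against 8153. With the replicate number as a block, 8040 genes were called and 1 neighbour on chromosome 1, lower, was left, with the 13 members as before. Samples of the same number deviated together with r of 0.0371, 0.0120 and 0.0143 across genes, so no pairing by number was visible. Whether the libraries were made in pairs is not stated, and these values cannot decide it. The unknown depth limits what can be said of genes near 0, and shared sequence limits Serpinb9c to Serpinb9h.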
